A study of Homo sapiens with 8 samples.

Results

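The regions described here are those in which chromatin precipitated with an antibody to H3(Lys4) exceeded its input in PC3 cells, a line derived from a bone metastasis of prostate cancer. They come from a DAXX knockdown line (K/D) and from the line it is set against (WT). Every region of the 2 lists on chromosomes 1 to 22 and X was taken (Y held none), 72181 in K/D and 72064 in WT, which is 144245 of the 249711 peaks in all 6 lists of the series. A region was called kept where it had at least 1 base in common with a region of the other list, K/D-only where a K/D region had none, and lost where a WT region had none. The series has 8 ChIP-Seq libraries, covering DAXX, DNMT1, H3(Lys4) and input chromatin in each line, so that H3(Lys4) rests on 1 library per line.

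The K/D line carries a stable shRNA to DAXX and was kept under puromycin at 2 μg/ml. The WT line is labelled wild type, while the series text speaks of a control line, so whether it carries a non-targeting shRNA was not settled. Both lines grew in the same serum-containing medium, and both were otherwise untreated. The antibody is labelled DMHH3(Lys4), a prefix that no source used here spells out, and the methylation state it recognised is therefore not stated here. Without replicates no test between K/D and WT was possible. Every difference below compares 2 libraries, and the 95% exact (Clopper-Pearson) intervals given for shares cover counting error only.

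Methylation of lysine 4 on histone H3 marks active and poised promoters and enhancers. Trimethylation sits mainly on the nucleosomes that flank transcription start sites (TSS), whereas dimethylation and monomethylation reach further out and into distal enhancers. Enzymes of the KMT2 (MLL) and SETD1 families write the mark in complexes with WDR5, RBBP5, ASH2L and DPY30, and enzymes of the KDM1 and KDM5 families erase it. DAXX is a co-repressor and a histone chaperone that works with ATRX to deposit the variant H3.3.

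Stretches of 200 bases of hg19 show examples of the DNA involved, and they were not drawn to be typical of either list. The first pair is the central 200 bases of wide K/D-only regions. These were picked because they hold a match to the AP-1 motif TGACTCA, which reads TGAGTCA on the other strand. The match is in capitals. The second pair, chosen after the values were seen, is the DNA just upstream of the start of an NF-kB pathway gene, where a WT region covered all 200 bases and K/D regions covered none. In these the capitals mark matches to the SP1 motif GGGCGG on either strand (NFKB2) or to the NF-kB motif (CXCL1). A match is a description of the letters and not evidence of a bound factor.
YWHAG, K/D-only region in an intron, plus strand, chr7:75985802-75986001: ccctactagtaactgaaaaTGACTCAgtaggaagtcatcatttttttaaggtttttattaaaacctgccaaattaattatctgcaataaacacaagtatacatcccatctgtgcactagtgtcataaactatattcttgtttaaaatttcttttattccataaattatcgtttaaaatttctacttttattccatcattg
PTX3 (nearest TSS), K/D-only region in an intron, plus strand, chr3:157053506-157053705: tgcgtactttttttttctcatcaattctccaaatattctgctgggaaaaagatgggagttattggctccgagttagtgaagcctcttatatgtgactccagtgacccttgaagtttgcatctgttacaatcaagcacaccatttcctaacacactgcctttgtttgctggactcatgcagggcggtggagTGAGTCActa
NFKB2, upstream DNA, plus strand, chr10:104155250-104155449: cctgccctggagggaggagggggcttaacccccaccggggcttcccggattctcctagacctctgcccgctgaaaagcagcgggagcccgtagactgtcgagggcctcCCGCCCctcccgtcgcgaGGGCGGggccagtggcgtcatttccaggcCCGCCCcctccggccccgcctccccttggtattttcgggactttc
CXCL1, upstream DNA, plus strand, chr4:74734910-74735109: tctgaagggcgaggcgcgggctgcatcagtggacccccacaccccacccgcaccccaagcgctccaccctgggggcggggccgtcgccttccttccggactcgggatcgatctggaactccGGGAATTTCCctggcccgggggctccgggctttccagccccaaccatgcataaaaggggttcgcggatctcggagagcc
The PTX3 region lies 101 kb from the start of PTX3, which encodes a soluble pattern recognition protein. The YWHAG stretch, in the gene of a 14-3-3 protein, is rich in A and T, with a GC content of 27.5%. Among 19781 protein-coding starts, 52.2% held the SP1 motif in the 200 bases upstream and 0.389% the NF-kB motif. The AP-1 motif lay within 100 bp of the centre in 7.21% of all K/D-only and 7.53% of all lost regions. The choice of the first pair asked for an AP-1 match or at least 10 CpG. A lost region at ANXA11, with 14 CpG, also met it and is not shown.

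The lists were of equal length but not of equal extent. K/D regions were narrower, covered less of the genome and held a smaller share of the library's tags. The K/D regions covered 64.4 Mb and the WT regions 78.1 Mb, a ratio of 0.825. The median width was 644 bp in K/D and 756 bp in WT, and the mean was 893 bp in K/D and 1084 bp in WT. The gap widened along the upper tail. Regions over 1000 bp numbered 18158 in K/D and 24601 in WT (ratio 0.738), those over 3000 bp 1268 in K/D and 3174 in WT (0.399), and those over 5000 bp 120 in K/D and 545 in WT (0.22). At the other end, 30195 K/D regions (41.8%) and 24806 WT regions (34.4%) had the minimum width of 501 bp that the peak caller gives.

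The libraries behind the lists differed in the same direction. K/D had 18705056 tags, of which 15.1% lay in its regions, and WT had 16248943 tags, of which 23.9% did. Scaled to equal depth, the density of tags in regions was 0.763 of the WT value in K/D. The caller required 13 tags per window in K/D and 12 in WT, so the stated threshold differed little. The share of tags in regions and the knockdown cannot be told apart with 1 library per line.

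Most regions on either side did not meet a region of the other list. Kept regions were 34770 in K/D (48.2%, interval 47.8 to 48.5) and 32995 in WT (45.8%, 45.4 to 46.2). K/D-only regions were 37411, or 51.8% of the K/D list, and lost regions were 39069, or 54.2% of the WT list. The regions had 26.8 Mb in common, which is 41.6% of the K/D bases, 34.3% of the WT bases and 23.2% of the 115.7 Mb that either list covered. Kept regions were the wider ones, with a median of 791 bp in K/D and 1027 bp in WT, against 501 bp for K/D-only and 631 bp for lost regions.

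Sharing climbed with width in both lists. Of regions at 501 bp, 34.4% were kept in K/D and 27.0% in WT. Of those above 1000 and up to 1500 bp, 63.8% were kept in K/D and 59.5% in WT. Over 5000 bp, 116 of 120 K/D regions (96.7%) and 496 of 545 WT regions (91.0%) were kept. The bases in common behaved less evenly. Over 5000 bp, 66.8% of K/D bases but 44.2% of WT bases lay in the other list, so the widest WT regions were mostly met and mostly not covered.

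**Figure D1:**
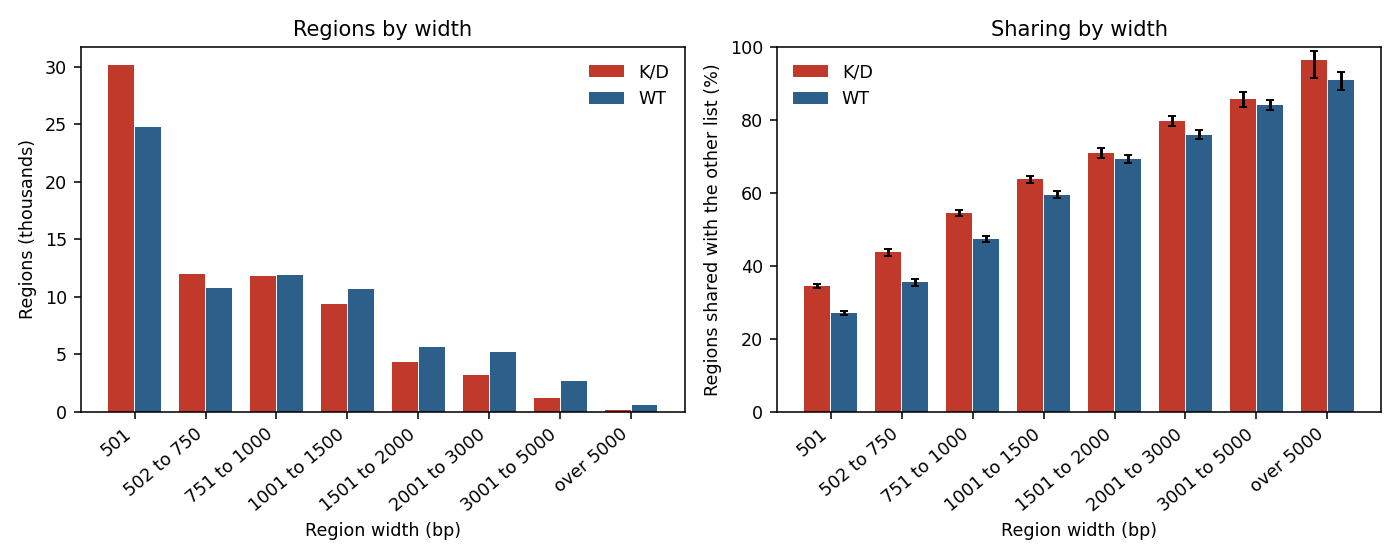
Number of regions, counted in units of 1000 (left), and per cent of regions kept (right) by width class in bp, for K/D and WT, with 95% exact intervals on the shares. Sharing climbs to 96.7% of K/D and 91.0% of WT regions over 5000 bp, where K/D has 120 regions and WT 545.

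A small part of the kept regions met more than 1 region of the other list, 2.79% of those in K/D and 7.65% of those in WT. A single WT region met 2 or more K/D regions in 2354 groups, whereas a single K/D region met 2 or more WT regions in 796. In groups of broken WT regions 4945 K/D regions covered 5.05 Mb within or beside 7.92 Mb of WT region. In groups of joined WT regions, K/D regions covered 2.17 Mb and the 1621 WT regions 1.86 Mb. Among kept regions, 29.1% of the K/D ones lay wholly inside WT regions, and 13.6% of the WT ones lay wholly inside K/D regions.

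In 28682 cases 1 K/D region met 1 WT region and nothing else. The median width in these pairs was 778.5 bp in K/D and 952 bp in WT. K/D was narrower in 16108 pairs (56.2%), wider in 9833 (34.3%) and equal in 2741 (9.56%). In 5248 pairs (18.3%) K/D was at least 2-fold narrower, and in 1911 (6.66%) it was at least 2-fold wider. The median log2 ratio of widths, K/D over WT, was −0.25 for 4319 pairs centred within 1 kb of a TSS and −0.10 for 16983 pairs over 10 kb away. Pairs with at least 50% of both regions in common cannot differ more than 2-fold in width, and among these 50.8% were narrower in K/D, with a median log2 ratio of −0.01.

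Regions at starts of genes were kept more often than distal ones. Of regions centred within 1 kb of a TSS, 70.6% of 9252 were kept in K/D (69.6 to 71.5) and 65.4% of 9944 in WT (64.4 to 66.3). Of those over 10 kb away, 40.6% of 47586 were kept in K/D and 39.4% of 47449 in WT. The difference was there at a fixed width: at 501 bp, 57.6% of K/D and 40.5% of WT regions near a TSS were kept, against 31.0% of K/D and 25.7% of WT distal regions. The difference in width was also larger there: near a TSS the median was 827 bp in K/D and 1125 bp in WT, and over 10 kb away it was 629 bp in K/D and 651 bp in WT.

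Across 19785 protein-coding genes, each taken at its most upstream start, coverage was bimodal in both lists, with a dip at the start itself and peaks on either side. The dip was deeper in K/D. The start was covered in 12.3% of genes in K/D and 22.1% in WT, a ratio of 0.557. At 1 kb downstream 31.2% were covered in K/D and 38.9% in WT, and at 1 kb upstream 18.0% in K/D and 22.6% in WT, a ratio of 0.80 on each side. At 5 kb upstream, 3.29% were covered in K/D and 4.21% in WT, with a ratio of 0.78. The shortfall was thus deepest over the start itself.

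**Figure D2:**
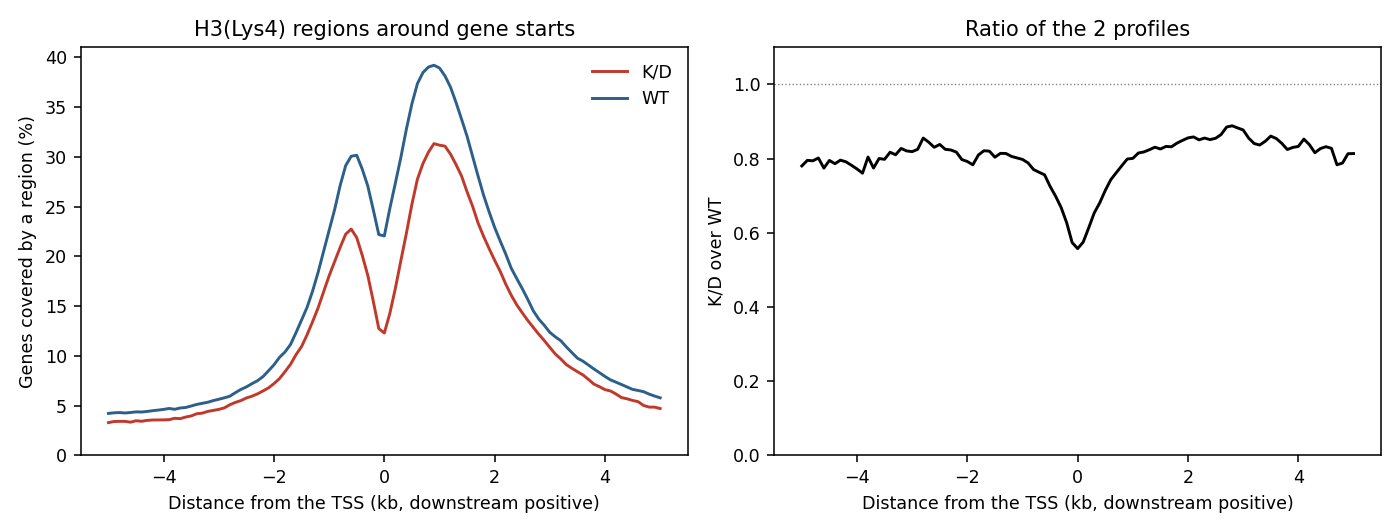
Per cent of 19785 protein-coding genes covered by a K/D or WT region in steps of 100 bp from 5 kb upstream to 5 kb downstream of the start, with the ratio K/D over WT. Both curves dip at the start, where 12.3% of genes are covered in K/D and 22.1% in WT.

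Counted by gene, 9038 had a region within 1 kb of a TSS in both lines. In 1864 genes (9.42%) there was one in K/D only and in 2450 (12.4%) in WT only, and 6433 had none in either. The bases covered within 2.5 kb of a start gave a finer measure. Of 10019 genes with covered bases in both lists, 588 (5.87%) were at least 2-fold higher in K/D and 2251 (22.5%) at least 2-fold lower, with a median log2 of −0.35. When each list was scaled to its covered bases, a shift of −0.28 on the log2 scale, the split was 905 higher and 1544 lower, with a median of −0.07. The gene values that follow are unscaled bases, at the start of each gene with the most covered bases in the lists together.

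Promoters rich in CpG kept their regions more often. Of 13510 genes with at least 4 CpG per 100 bp around the start, a limit chosen after the data were seen, 80.3% of those with a WT region also had one in K/D. Of the remaining 6275 genes, 68.6% did. The share that was at least 2-fold lower in K/D was similar in both classes, at 22.2% of CpG-rich and 24.1% of CpG-poor promoters with a ratio.

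Genes on the list of H3K4 methyltransferases had less H3(Lys4) coverage in K/D, and genes on the list of demethylases did not. Of 12 methyltransferase genes, 11 had more bases covered in WT (91.7%, beside 45.4% of all genes). None had more in K/D, where 24.95% of all genes did. All genes here include those with no covered base in either list. Both lines had a region within 1 kb of a start at 7 of them and WT alone at 4 (33.3%, beside 12.4% of all genes), though at 1 when 5 kb was allowed. Of 8 with a ratio, 4 were at least 2-fold lower in K/D, where 22.5% of all genes were, and none higher, with a median log2 of −0.97, beside −0.35 over all genes, or −0.69 beside −0.07 after scaling, when 2 of the 8 were lower. KMT2D, which methylates enhancers, had 1293 bp in K/D and 3187 bp in WT. KMT2E had 0 bp in K/D and 3023 bp in WT, and SETD1A, the catalytic subunit of a complex active at promoters, had 0 bp in K/D and 2027 bp in WT. SMYD3 likewise had 0 bp in K/D and 3169 bp in WT. KMT2A, with 2855 bp in K/D and 4672 bp in WT, and KMT2B, with 2725 bp in K/D and 3549 bp in WT, kept more of theirs. SMYD1, a muscle gene, had none in either line.

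The list of 10 demethylase genes, which includes RCOR1 and RCOR3, scaffold partners of KDM1A and not enzymes themselves, stood level. Both lines had a region at 8 of them, none was 2-fold higher or lower, and the median log2 was 0.01 (0.29 after scaling). KDM1A (LSD1) had 2009 bp in K/D and 1752 bp in WT. KDM5B had 2017 bp in K/D and 2286 bp in WT. Partner subunits of the methyltransferases were mixed, with 9 of 16 held by both lines. K/D alone held 2 (12.5%, beside 9.42% of all genes) and WT alone 4 (25%, beside 12.4%). ASH2L had 2129 bp in K/D and none in WT, and BOD1 had none in K/D and 2687 bp in WT. The DAXX gene itself had 2605 bp in K/D and 938 bp in WT, in 3 K/D regions from −1512 to 4236 bp of its start and 1 WT region upstream of it. These values are of chromatin and do not measure the knockdown, since no RNA was analysed here. H3-3B, which encodes H3.3, had 658 bp in K/D and 2894 bp in WT.

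**Figure D3:**
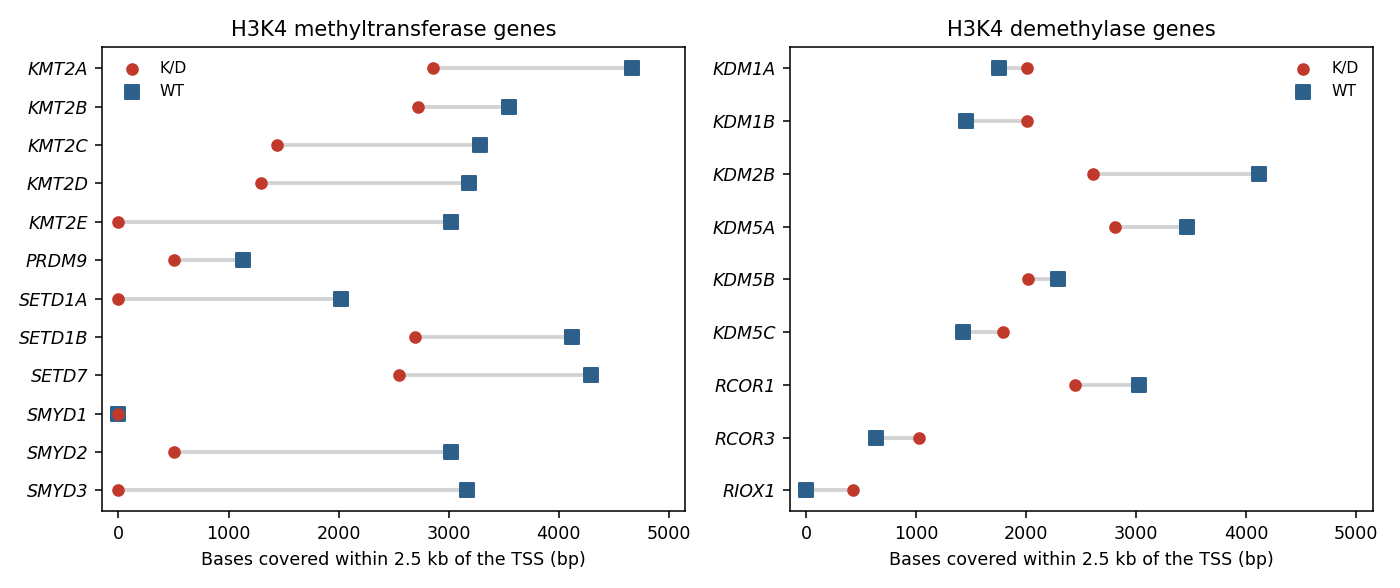
Bases covered by H3(Lys4) regions within 2.5 kb of the start, for genes of the methyltransferase and demethylase lists, K/D and WT for each gene. Coverage is greater in WT for 11 of 12 methyltransferase genes, where it is for 45.4% of all genes. The 9 genes drawn from the demethylase list lie on both sides.

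Genes that the study singled out in these cells did not move together. Of 14, both lines had a region at 6 and neither at 2. K/D alone had one at 3 (21.4%, beside 9.42% of all genes) and WT alone at 3 (21.4%, beside 12.4%). Of the 7 with a ratio, 4 were at least 2-fold lower in K/D (57.1%, beside 22.5% of all genes). The 1 that was higher (14.3%, beside 5.87%) was DAXX itself. The median log2 of the 7 was −1.04, beside −0.35 over all genes. After scaling it was −0.76 beside −0.07, when 2 of the 7 were lower. The study chose these genes on the same cells, so their counts are not independent of its data. ATG7, which drives autophagosome conjugation, had 1521 bp in K/D and none in WT, and DAPK3, a kinase of the death-associated family, had 1019 bp in K/D and none in WT. NRP1, a semaphorin and VEGF co-receptor, had 1166 bp in K/D and none in WT. MTOR had none in K/D and 1564 bp in WT, and RPTOR, its partner in the complex that restrains autophagy, none in K/D and 2288 bp in WT. ULK1, the kinase that starts autophagy, had 1514 bp in K/D and 1262 bp in WT, and ETV1 had 1768 bp in K/D and 3890 bp in WT. Of the remaining genes, ATG3 had 1534 bp in K/D and 3154 bp in WT, ATG101 640 bp in K/D and 1691 bp in WT, BECN1 1051 bp in K/D and 1439 bp in WT, and DEPTOR 211 bp in K/D and 1641 bp in WT. DAPK1 and RELB had no covered base in either line. Of 44 core autophagy genes, both lines had a region at 30, K/D alone at 7 (15.9%, beside 9.42% of all genes) and WT alone at 3 (6.82%, beside 12.4%). Their median log2 of −0.36 was that of all genes. AMBRA1 had 3677 bp in K/D and 501 bp in WT, whereas ATG2B had none in K/D and 3469 bp in WT.

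Inflammatory and growth factor genes had less coverage in K/D, with medians below that of all genes. Of 24 inflammatory and NF-kB genes, both lines had a region at 12, K/D alone at 2 (8.33%, beside 9.42% of all genes) and WT alone at 7 (29.2%, beside 12.4%). Of the 14 with a ratio 5 were lower in K/D (35.7%, beside 22.5%) and 1 higher (7.14%, beside 5.87%), with a median log2 of −0.90 (−0.62 after scaling). NFKB2, the p100 subunit, had 0 bp in K/D and 3952 bp in WT, NFKBIZ had 0 bp in K/D and 3822 bp in WT, and the chemokine gene CXCL1 had 940 bp in K/D and 4567 bp in WT. At CXCL1 the WT region ran through the start, and the K/D region ended at −1560 bp from it. Of 25 EGFR ligand and MAPK feedback genes, K/D alone had a region at 2 (9.42% of all genes did) and WT alone at 7 (12.4% of all genes), and of 20 with a ratio 7 were lower in K/D (22.5% of all genes) and 1 higher (5.87%), with a median log2 of −0.80. The phosphatase gene DUSP1 had 492 bp in K/D and 2999 bp in WT, while SPRY1, an inhibitor of receptor tyrosine kinase signalling, had 4323 bp in K/D and 1936 bp in WT. The 18 p53 targets and cell-cycle inhibitors were divided. Of the 13 with a ratio 1 was at least 2-fold lower in K/D (7.69%, beside 22.5%), with a median log2 of −0.20. That median leaves out genes with no covered base in one list. Of the 18, 12 had more covered bases in WT (66.7%, beside 45.4% of all genes) and 6 in K/D (33.3%, beside 24.95%). WT alone had a region at 5 of the 18 (27.8%, beside 12.4% of all genes) and K/D alone at none. Among these 5 were MDM2, with 0 bp in K/D and 2893 bp in WT, and CDKN1A (p21), with 0 bp in K/D and 2459 bp in WT. PC3 cells lack functional p53.

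Of 10 markers of PC3 cells, both lines had a region at all but CD44 and CAV1, and coverage was less in K/D at all but CAV1. Of all genes, 45.4% had less coverage in K/D and 24.95% had more. Of the markers with a ratio and less coverage in K/D, only ANXA2 and VIM were at least 2-fold lower. The others had a log2 from −0.44 (KRT8) to −0.78 (KRT18), beside a median of −0.35 over all genes. KRT8 had 2780 bp in K/D and 3759 bp in WT, KRT18 had 2125 bp in K/D and 3657 bp in WT, and EPCAM had 1993 bp in K/D and 2886 bp in WT. VIM, the mesenchymal filament that PC3 cells also express, had 1663 bp in K/D and 3569 bp in WT. CD44 had no K/D base and 2914 bp in WT, and CAV1, which had a region within 1 kb of a start in K/D only, had 1637 bp in K/D and 188 bp in WT. Of 24 epithelial adhesion genes WT alone had a region at 4 (16.7%, beside 12.4% of all genes). K/D alone had one at 2 (8.33%, beside 9.42%). Their median log2 was −0.76, beside −0.35 over all genes. The desmosomal genes PKP1 and PKP3 had no K/D base and 4115 and 3548 bp in WT. Of 24 mesenchymal and invasion genes WT alone had a region at 6 (25%, beside 12.4%) and K/D alone at 3 (12.5%, beside 9.42%). Their median log2 was −0.63. Genes of other cell types mostly had no region, where 6433 of all 19785 genes had none. Neither line had one at 27 of 28 olfactory receptor genes, 12 of 16 leukocyte markers, 6 of 9 endothelial markers and 7 of 10 liver markers. Of 12 neuroendocrine genes neither line had a region at 7 and both had one at 3. WT alone had one at 2 of these 12 (16.7%, beside 12.4% of all genes) and K/D alone at none. Both lines had a region at 2 of the leukocyte and 2 of the endothelial markers.

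Of 16 AP-1 family genes K/D alone had a region at 5 (9.42% of all genes did) and WT alone at 3 (12.4% of all genes). More covered bases were found in K/D at 3 (24.95% of all genes) and in WT at 12 (45.4% of all genes). FOSL1 had 0 bp in K/D and 3582 bp in WT, and BATF3 had 1886 bp in K/D and none in WT. Of 18 YAP and TEAD genes, the Hippo pathway's output, K/D alone had a region at 3 (16.7%, beside 9.42% of all genes). WT alone had one at 1 (5.56%, beside 12.4%). Of 13 with a ratio none was at least 2-fold higher in K/D, where 5.87% of all genes were. At least 2-fold lower were 4 (30.8%, beside 22.5%). NT5E (CD73) had 3238 bp in K/D and none in WT, and CRIM1 had none in K/D and 4018 bp in WT. The 36 cytosolic ribosomal protein genes lay near genes at large, with a region in K/D alone at 2 (5.56%, beside 9.42%) and in WT alone at 6 (16.7%, beside 12.4%), and a median log2 of −0.27 beside −0.35. RPL32 had 58 bp in K/D and 2991 bp in WT.

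The remaining lists are read against all genes, of which 9.42% had a region in K/D alone and 12.4% in WT alone, and of those with a ratio 5.87% were higher and 22.5% lower in K/D. K/D alone had a region at 2 and WT alone at 6 of 16 genes of DNA methylation and demethylation, among them DNMT1 itself, with 0 bp in K/D and 1758 bp in WT, and the thymine glycosylase gene TDG, with 2849 bp in K/D and 0 bp in WT. Of 24 TGF-beta pathway genes K/D alone had a region at 1 and WT alone at 5, with 2 of 19 higher and 2 lower in K/D, and the activin subunit gene INHBA had 0 bp in K/D and 4437 bp in WT. Of 24 interferon response genes K/D alone had a region at 3 and WT alone at 5, and 6 of 19 were at least 2-fold lower in K/D and 1 higher. Of 15 androgen receptor and luminal prostate genes K/D alone had a region at 2 and WT alone at 4. Of 23 hypoxia and glycolysis genes K/D alone had a region at 1 and WT alone at 3, with 3 of 20 higher and 3 lower in K/D. Among 20 genes of cholesterol synthesis the lines were even, with 2 in K/D alone and 2 in WT alone, and of 14 readers of the mark 13 had a region in both lines.

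The HOX clusters, which order body segments in development and stay marked in derived lines, had less coverage in K/D, and HOXA held the widest WT region of all. Over the HOXA cluster, with 11 genes at chr7:27130615-27244709, 24 K/D regions covered 31.1 kb and 15 WT regions 62.3 kb, of which 25.4 kb was in common. The widest region there was 3756 bp in K/D and 17767 bp in WT. Coverage was also lower in K/D at HOXB, with 21.1 kb in K/D and 33.6 kb in WT, at HOXC, with 20.07 kb in K/D and 30.01 kb in WT, and at HOXD, with 9.90 kb in K/D and 13.0 kb in WT. K/D over WT was thus 0.50 at HOXA, 0.628 at HOXB, 0.669 at HOXC and 0.763 at HOXD, beside 0.825 over the genome. The clusters are dense in starts, and all regions centred within 1 kb of a TSS covered 9.97 Mb in K/D and 14.8 Mb in WT. By gene, the 39 HOX genes were not below genes at large. Their median log2 was −0.28 beside −0.35, or −0.003 beside −0.07 after scaling. The 17767 bp WT region at HOXA10 met 5 K/D regions with 8609 bp in common. HOXA6 had 0 bp in K/D and 3411 bp in WT near its start.

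**Figure D4:**
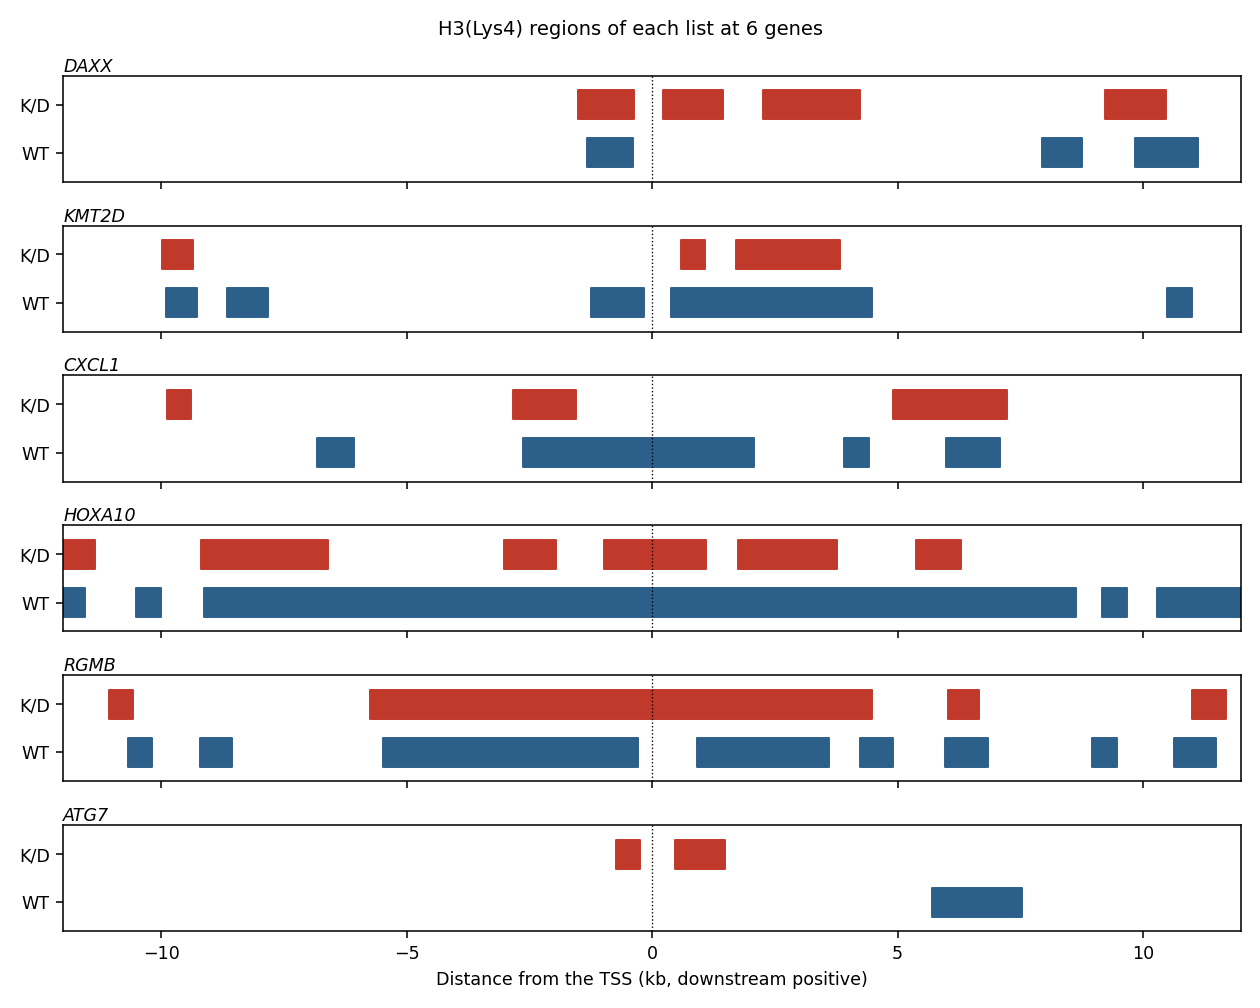
H3(Lys4) regions of K/D and WT drawn to scale by distance from the start of the named gene, in kb, with the K/D track above the WT track. Within 5 kb of its start DAXX has 3 K/D regions and 1 WT region, and at RGMB 1 K/D region of 10227 bp spans 3 WT regions.

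Wide regions were also lost outright. The 8 widest lost regions that reached within 1 kb of a TSS measured 6420 to 7616 bp. At ZNF248, a zinc finger gene, an intronic WT region of 7616 bp at chr10:38140011-38147626 had no K/D region within 18.5 kb. At ANXA11, which encodes an annexin, an intergenic WT region of 6791 bp at chr10:81963423-81970213 lay 121 kb from the nearest K/D region. Other wide losses lay close to a remaining K/D region. The nearest was 3.68 kb away for the 7180 bp region at AGRN, which encodes the matrix protein agrin, and 1.30 kb away for the 7031 bp region at CDC42EP4. Between genes, a lost region of 5923 bp lay 928 kb from the nearest TSS, that of the adhesion gene ALCAM. The pairs that narrowed by the most bases were at ZFHX4, with 2658 bp in K/D and 14174 bp in WT, near BLID, with 501 bp in K/D and 10283 bp in WT, and at ASPH, with 2836 bp in K/D and 11885 bp in WT. In these the K/D region lay wholly inside the WT one.

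K/D-only regions were narrower at the top, and the 8 widest near a TSS measured 4268 to 6411 bp. The widest lay in an intron of GRK5, a kinase of G protein-coupled receptors, at chr10:120965433-120971843, with the nearest WT region 6.20 kb away. A 5400 bp K/D-only region lay in an intron of YAP1, the transcriptional effector of the Hippo pathway, at chr11:101983012-101988411, and WT had none within 20.2 kb. The YWHAG region of 4602 bp missed a WT region by 627 bp. Of those over 10 kb from a TSS, the widest was 5421 bp, in an intron and 45.2 kb from the start of FERMT2, which encodes an integrin activator. Of pairs that were wider in K/D, MEF2C had 7671 bp in K/D and 1189 bp in WT and AMIGO2 7605 bp in K/D and 805 bp in WT. The widest K/D region of all, 10227 bp at RGMB, a bone morphogenetic protein co-receptor, joined 3 WT regions with 8117 bp in common.

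Most unshared regions lay over 1 kb from any region of the other list. Whether the other library held signal there under the caller's threshold was not tested. The nearest region of the other list lay a median of 6469 bp away for K/D-only regions and 5965 bp for lost regions. It lay within 1 kb for 19.5% of K/D-only and 19.1% of lost regions. It lay over 50 kb away for 4758 K/D-only regions (12.7%) and 2725 lost regions (6.97%), so isolated regions were more numerous in K/D.

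The unshared regions differed in base composition from the kept ones, and from each other. The median GC content was 40.3% in K/D-only regions, 41.9% in lost regions, 42.5% in kept K/D regions and 42.9% in kept WT regions. More than 3 CpG per 100 bp were held by 6.60% of K/D-only, 10.0% of lost, 18.0% of kept K/D and 20.4% of kept WT regions. Near a TSS the shares were higher, at 50.02% of K/D-only, 59.3% of lost, 59.4% of kept K/D and 65.5% of kept WT regions. By GC class the lists parted at the top: over 60% GC, 70.8% of K/D and 58.8% of WT regions were kept, and at or below 35% GC, 42.1% of K/D and 42.8% of WT regions were.

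The AP-1 motif, bound by FOS and JUN dimers at enhancers, was found on both sides of the division. A match lay within 100 bp of the centre in 7.21% of K/D-only, 7.53% of lost, 5.85% of kept K/D and 6.63% of kept WT regions. Windows of the same length 2 kb beside the centres held it in 3.25%, 3.29%, 3.22% and 3.15%. Over all regions the share was 6.55% in K/D and 7.12% in WT, beside 3.23% next to either. Among regions over 10 kb from a TSS it was 7.82% in K/D-only and 8.21% in lost regions, with 3.38% beside each. Near a TSS it was 3.56% in K/D-only and 3.19% in lost regions, close to the 2.77% and 2.82% beside them. The SP1 motif ran the other way, with 3.84% of K/D-only, 5.69% of lost, 7.61% of kept K/D and 8.72% of kept WT regions, beside 3.60%, 4.05%, 6.45% and 5.83% next to them. Near a TSS it was in 18.8% of K/D-only, 23.7% of lost, 21.6% of kept K/D and 25.3% of kept WT regions.

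Within each list, taken over all widths, DAXX peaks lay in kept more often than in unshared regions. The order turned among regions above 1500 and up to 3000 bp, as given below. A WT DAXX peak lay in 15.0% of K/D-only and 24.0% of lost regions, against 23.9% of kept K/D and 32.6% of kept WT regions. A K/D DAXX peak lay in 14.2% of K/D-only, 12.8% of lost, 18.3% of kept K/D and 21.8% of kept WT regions. A DAXX peak of either line was thus more frequent among the unshared regions of its own line. Kept regions were also the wider ones. Among regions of 500 to 1000 bp the shares with a WT DAXX peak lay closer together, at 12.2% of K/D-only, 18.5% of lost, 18.6% of kept K/D and 20.7% of kept WT regions. Above 1500 and up to 2000 bp, a WT DAXX peak lay in 49.9% of lost and 41.5% of kept WT regions. A K/D DAXX peak lay in 34.8% of K/D-only and 28.4% of kept K/D regions of that width. Above 2000 and up to 3000 bp these shares were 55.1% and 49.0%, and 40.3% and 33.1%. At 501 bp they were 14.2% and 14.8%, and 8.89% and 9.56%. A WT DNMT1 peak lay in 1.44% of kept WT regions and 0.454% of K/D-only regions.

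Along the genome the lists balanced in most places and parted in a few. In 541 windows of 5 Mb with at least 100 regions, the log2 ratio of region numbers, K/D over WT, had a median of −0.03 and ran from −0.71 to 2.11. In 23 windows K/D had at least 1.5-fold more regions, 2727 in K/D and 1324 in WT. These windows had a median of 118 K/D and 58 WT regions, where the median over all 541 was 129 in K/D and 127 in WT. Because the ratio and the limit of 100 regions chose the windows, these medians cannot show which list departs. Of the regions in these windows 24.4% were kept in K/D and 47.6% in WT, shares that the unequal numbers also shape. The most lopsided were at chr5:160-165 Mb, with 108 K/D and 25 WT regions, at X:30-35 Mb, with 90 K/D and 23 WT regions, and at chr11:40-45 Mb, with 133 K/D and 35 WT regions.

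The windows were poor in genes, with a median of 13 each beside 25 in all windows, and had a median GC content of 38.2% beside 40.4%. The DAXX lists moved with them: in these windows DAXX had 1274 peaks in K/D and 1094 in WT, a ratio of 1.16, where over all windows it was 0.716. DNMT1 had 14 peaks in K/D and 32 in WT there, and 580 in K/D and 2195 in WT over all windows. Whether the shift in all of these lists has a common source was not tested. The reverse was seen in 5 windows, with 279 regions in K/D and 435 in WT. Without the 23 windows 49.1% of K/D and 45.8% of WT regions were kept.

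**Figure D5:**
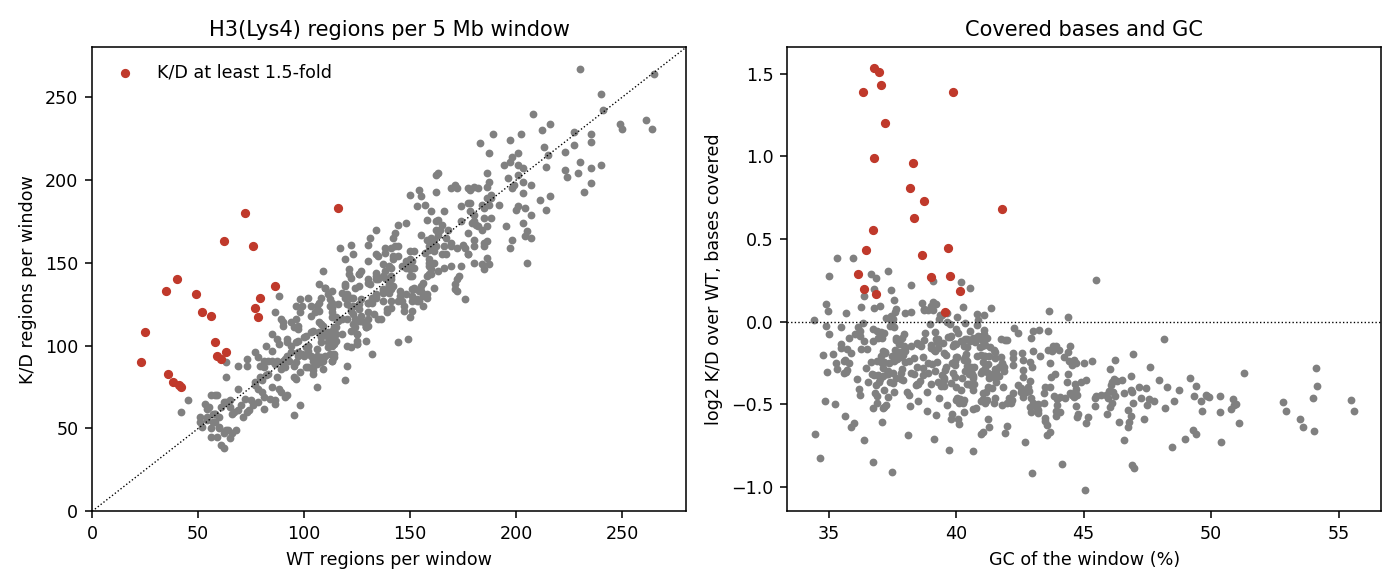
Each point is a 5 Mb window, 541 in all, placed by its number of K/D regions (vertical) and WT regions (horizontal) on the left, and by the log2 ratio of covered bases, K/D over WT, against its GC content in per cent on the right. Most windows follow the dotted line of equal numbers, and the 23 in red, with at least 1.5-fold more regions in K/D, hold 2727 K/D and 1324 WT regions.

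By chromosome, the kept share was lowest on chromosome 8, at 41.1% in K/D and 41.7% in WT, and highest on the gene-rich chromosome 19, at 61.7% in K/D and 51.3% in WT. The ratio of covered bases, K/D over WT, was lower in windows of higher GC content. Across the 541 windows, which share their libraries and are not replicates, the rank correlation (Spearman) with GC was −0.45 for the ratio of bases and −0.24 for the ratio of region numbers.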

How the data were processed

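ChIP-Seq libraries of the PC3 K/D and WT lines, 1 per line and antibody, were compared as the lists of regions the authors deposited. According to the submitters' processing notes, reads were called with CASAVA 1.8.2, aligned to hg19 with Bowtie2 2.1.0 and analysed with HOMER 4.6. Per the file headers, each deposited list was called in histone style on its own library against its matched input, with windows of 500 bp stitched together, a 4.00-fold excess over input and tags of an older and a newer sequencing run joined. The study's methods state factor style for its peaks, and the headers are followed here. The deposited region positions were used as start and end. The score column is constant, and no other column was used for a comparison between K/D and WT. The basis of the deposited order is not stated, and no tag counts per region were compared.

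Regions on chromosomes 1 to 22 and X were intersected in Python 3.11.15 (numpy 2.4.6, pandas 2.3.3, scipy 1.17.1, matplotlib 3.10.9), counting at least 1 base in common. On other contigs 34 K/D and 36 WT regions were left out. The intersection code was tested on simulated regions with known overlaps. Genes were 19785 protein-coding genes of GENCODE lifted to GRCh37, the assembly of hg19, and a gene had a region where one lay within 1 kb of any of its TSS. Covered bases were counted within 2.5 kb of the start with the most bases in the lists together, and a 2-fold difference was called. Motifs were exact matches on both strands within 100 bp of region centres. The members and the 28 gene lists (578 entries, 2 without a match) were chosen with earlier results of these data known. Genes and regions were named from the 8 widest lost and K/D-only regions within 1 kb of a TSS and the 4 widest over 10 kb away. Further sources were the 5 pairs with the largest gain and loss of width and the 3 widest regions of each list. All genes of the study's list and of the methyltransferase and demethylase lists were named. So were up to 3 genes of each other list with the largest difference in covered bases. Markers of PC3 cells were named as well, and the promoter sequences were chosen after their values were seen. Equal-count width classes had been planned, but too many regions share the minimum width of 501 bp, so fixed classes were used. The precision of shares is given as 95% exact intervals, and depth as total tags per library. Alternatives changed the overlap required, the widths, the distance to a TSS and the scaling.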

Additional observations from a re-analysis of the deposited data

How the results depend on the processing

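No paired analysis was possible because each line has 1 library, and no replicate could be left out. Taken singly no signed value changed sign. Of the alternative values, 50 stayed near the main value, such as within its counting interval or within 1.5 times, and 71 moved. Those that moved are given with K/D before WT. Kept shares depended most on the overlap required: 37.8% and 29.7% with at least 50% of the region in common, 23.03% and 23.06% with 50% of both, 33.4% and 33.4% with centres within 500 bp, the lines being level in both, and 58.3% and 56.2% with regions extended by 500 bp. They were 51.1% and 36.9% for regions of at least 1000 bp, 51.0% and 48.4% in the first 50% of each deposited list, 48.9% and 47.2% with regions within 1000 bp joined, and 39.9% and 56.9% with the WT list cut to 46894 regions, which cover the bases of the K/D list and turn the order of the lines. A minimum of 500 bp removed nothing, so its values, which are among the 50, could not move. Added after seeing the data, regions over 501 bp gave 49.6% and 42.3%, and leaving out the 23 windows 49.1% in K/D. The bases in common were 44.3% and 28.6% at 1000 bp or more, 44.2% and 34.6% in the first 50%, 43.9% and 36.7% joined, 43.1% and 32.4% over 501 bp, and 41.7% in K/D without X and Y. K/D was narrower in 50.8% of pairs with 50% of both in common (median log2 −0.010), 58.0% of connected groups and 61.2% of pairs over 501 bp. At 1.5-fold, 3832 genes were lower and 1145 higher in K/D, and after scaling 905 were higher, with a median log2 of −0.069.

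Near a TSS the kept shares were 73.7% and 69.5% when any base counted, and 61.8% and 45.9% with 50% of the region in common, when distal regions had 30.2% and 24.4%, chromosome 8 30.8% and 26.4%, and chromosome 19 52.1% and 34.7%. Over 501 bp, 18.7% of K/D-only and 19.9% of lost regions lay within 1 kb of the other list, which turns the order of the main 19.5% and 19.1%. The AP-1 motif within 250 bp was in 16.1% of K/D-only, 17.2% of lost, 13.8% of kept K/D and 15.3% of kept WT regions, and in regions of at least 1000 bp in 9.66%, 9.27%, 6.41% and 7.08%, which turns the order of K/D-only and lost regions. A WT DAXX peak centre lay in 10.2%, 18.6%, 18.5% and 28.2% of the same sets, and in regions of 500 to 1000 bp a WT DAXX peak in 12.2%, 18.5%, 18.6% and 20.7%. Of the methyltransferase genes, both lines had a region at 4 and WT alone at 7 within 500 bp of a TSS, and WT alone at 1 within 5 kb. By deposited order, the last of 10 equal classes was kept at 23.8% and 18.6% and the first at 77.4% and 77.7%. Depth limits what can be said of the regions at 501 bp, and a region absent from a list may fall just under the caller's threshold. The cause of these changes was not tested.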
